A study of Rattus norvegicus with 12 samples.

Results

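Genes of the translation machinery were examined in rat lung after trauma and hemorrhagic shock. A gene was taken when its platform symbol began with Rpl, with Rps and a digit (or was Rpsa), with Eif or with Eef, leaving out the Rps6k kinases. This gave 70 genes of 4736 measured genes, read by 107 of 8740 probe sets. They comprise 30 genes of the large ribosomal subunit, 14 of the small subunit, 17 initiation factors, 4 elongation factors and 5 regulators of these factors. For a gene with several probe sets, the one with the highest mean over the 12 arrays stands for the gene. A further 45 probe sets carry several symbols, at least 1 of them of this kind, and were left out.

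All animals were male Sprague-Dawley rats with arterial and venous cannulas and a laparotomy, which is the trauma in every group. Rats of the T/SS group were sham-shocked, with no blood drawn and the lymph duct open. In the T/HS group, blood was drawn into heparin under pentobarbital until the mean arterial pressure was 30 mmHg, was held there for 90 min, and all of it was then given back. In the T/SS-LDL and T/HS-LDL groups, the mesenteric lymph vessels were first tied and cut, and the sham or shock period followed. Heparin reached the shocked groups with the returned blood, and the labels of the sham groups name none. Lungs were taken 3 h after that period, or 4.5 h after its start. Per the series' design, the T/HS rats had lung injury and the T/HS-LDL rats had none that could be measured. The study therefore set T/HS against T/SS for shock with injury, T/HS-LDL against T/SS-LDL for shock without it, and T/HS against T/HS-LDL for the injury.

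Each group has 3 arrays. Each group held a pair of near-identical arrays, and the log2 differences within such a pair had a robust SD of 0.00993 to 0.0548. The labels name all arrays as biological replicates. Each pair was averaged, so that 8 samples remained, 2 per group. Array medians lay between 651 and 680 intensity units. Lung epithelial markers (7 of 9 measured, among them the surfactant proteins) had a summed intensity of 168790 to 185480 over all samples. Most of that sum is held at the array maximum, with Sftpc within 2% of it on 12 arrays, Ager on 11, Sftpb on 10 and Sftpa1 on 8. The markers of lung were thus present, and their sum cannot show a change. Aqp5, an epithelial water channel below that zone, read 7835 and 8082 in T/SS and 5441 and 3824 in T/HS, a log2 difference of -0.80. Also below that zone, Sftpd differed by 0.22 and Scgb1a1 by -0.06 in the same comparison. In T/HS-LDL against T/SS-LDL, Aqp5 differed by -0.25, Sftpd by 0.26 and Scgb1a1 by 0.08. Neutrophil markers (10 of 15 measured) summed to 22082 to 27599 in T/SS, 37650 to 72709 in T/HS, 34144 to 44855 in T/SS-LDL and 63540 to 72672 in T/HS-LDL. Smooth muscle markers (7 of 7) summed to 41912 to 53171 in T/SS, 34902 to 42346 in T/HS, 50093 to 55768 in T/SS-LDL and 34958 to 40679 in T/HS-LDL. The neutrophil sums lay above those of the sham group in both duct states. The smooth muscle sums lay below with a ligated duct and overlapped with an open one. With an open duct Aqp5 lay below, Scgb1a1 lay below by its small difference, and Sftpd overlapped. The part of these cell types in the values below was not tested. In whole lung, fewer cells of a type and less RNA per cell cannot be told apart.

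A ribosome joins a small subunit, which reads the mRNA, to a large subunit, which forms the peptide bond. Initiation factors bring the first tRNA and the small subunit to the mRNA cap, and elongation factors carry each further tRNA and move the ribosome along. Kinases that phosphorylate eIF2 or eEF2, and proteins that bind eIF4E, slow these steps under stress. Many mRNAs of ribosomal proteins begin with a C followed by a run of pyrimidines, the 5′ terminal oligopyrimidine (TOP) motif, through which mTOR signalling controls their translation. An array measures mRNA level and not translation.

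Because this motif is the sequence feature the family is known for, the annotated start sites were read from RefSeq (build GRCr8), where 61 of the 70 genes had a sequence. A C at the start followed on the same strand by at least 4 further letters that are C or T was present in 11 of the 61 (18.0%) against 722 of 27457 promoters in all (2.63%). The 11 were all among the 37 ribosomal protein genes with a sequence (29.7%), and none of the 24 factors and regulators had it. Allowing such a run anywhere from 10 bases before to 20 bases from the start gave 52.5% of the 61 genes and 33.5% of all promoters. By role it gave 64.9% of the ribosomal protein genes, 31.2% of 16 initiation factors, 50% of 4 elongation factors and 25% of 4 regulators. Eef1a1 was among the elongation factors with such a run. The 30-base windows below show 5 ribosomal protein genes with the run at the start, then 3 genes without it to which the results return. The annotated start is base 16, and capitals mark the C and the pyrimidines after it.
Rpl31, chr9:49143096-49143125, plus strand: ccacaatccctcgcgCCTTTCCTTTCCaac
Rpl19, chr10:83519049-83519078, plus strand: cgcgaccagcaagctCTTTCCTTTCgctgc
Rps15, chr7:10068101-10068130, minus strand: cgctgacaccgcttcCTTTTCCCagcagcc
Rpl35a, chr11:81235007-81235036, minus strand: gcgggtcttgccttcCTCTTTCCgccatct
Rplp0, chr12:46718376-46718405, minus strand: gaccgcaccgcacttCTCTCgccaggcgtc
Eif4h, chr12:27719677-27719706, plus strand: tgcggggtccttcctCgctggcccgctggt
Eif4a2, chr11:91275309-91275338, minus strand: gtcttttcagtcgggCgctgagtgggtttt
Rps27l, chr8:76443643-76443672, plus strand: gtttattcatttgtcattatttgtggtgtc
A match is a description of letters at an annotated start, and a start that is placed some bases off would hide a run.

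Many of these genes sit near the top of the array's range. Rps29, a protein of the small subunit, was within 2% of the array maximum on all 12 arrays. The probe set that stands for it was itself the maximum on each of the 12, so its level has only a lower bound and no difference is given. A further 4 genes were within 2% on some arrays: Eef2 on 7, Rps16 on 5, and Rplp0 and Rpl26 on 2 each. Between 1 and 5 of the genes were in that zone on any 1 array. Counted as probe sets, 2 to 6 of the family were there, out of 22 to 51 of all kinds. Just outside the zone lay Rpl27a, at 94.8% to 95.4% of the maximum on every array, and Rps3, at 89.5% to 95.0%. On each array 25 to 26 of the 70 genes were above 50% of the maximum, of 116 to 138 such genes in all. The other 69 genes are described below as the genes under the ceiling.

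The median of the family lay near the sham level in every comparison. The median log2 difference of the 69 genes was -0.03 in T/HS against T/SS, where the median of all 4736 genes was -0.01. It was -0.01 in T/HS-LDL against T/SS-LDL (all genes 0.01) and -0.03 in T/HS against T/HS-LDL (all genes 0.02). In T/SS-LDL against T/SS, the comparison of ligation alone, it was 0.01 (all genes -0.02). The median deviation of the 69 genes in single samples ran from -0.05 to 0.05, with a pooled SD within groups of 0.0414, so none of these medians exceeds that spread.

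Single genes were tested with limma over all 8740 probe sets. At an adjusted p under 0.05, none of the 69 genes and 0% of all probe sets passed in any of 6 comparisons. At an unadjusted p under 0.05, 8.8% of probe sets (769) passed in T/HS against T/SS, 3.79% (331) in T/HS-LDL against T/SS-LDL and 6.37% (557) in T/HS against T/HS-LDL. For ligation alone 4.23% (370) passed, for the interaction 2.99% (261) and for the mean of both shock effects 9.04% (790). The interaction is the shock effect with an open duct minus that with a ligated duct. Among genes, T/HS against T/SS had 2 of the 69 genes higher, against 3.63% of all genes, and 3 lower, against 4.98%. That is 7.25% of the family, a share near the 8.61% of all genes. The count was 10 without T/HS replicate 2 and 2 without either T/SS sample. In T/HS-LDL against T/SS-LDL none of the 69 passed the unadjusted threshold, where 4.14% of all genes did (1.94% higher and 2.2% lower). That count was 2 without the averaged T/HS-LDL pair and 1 without the averaged T/SS-LDL pair. Most differences were small: 10 of the 69 genes differed by over 0.3 on the log2 scale in T/HS against T/SS (all genes 15.9%), and 1 did in T/HS-LDL against T/SS-LDL (all genes 9.9%). The interaction was over 0.3 in size for 10 genes (all genes 17.2%) and the mean shock effect for 4 (all genes 9.92%).

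**Figure D1:**
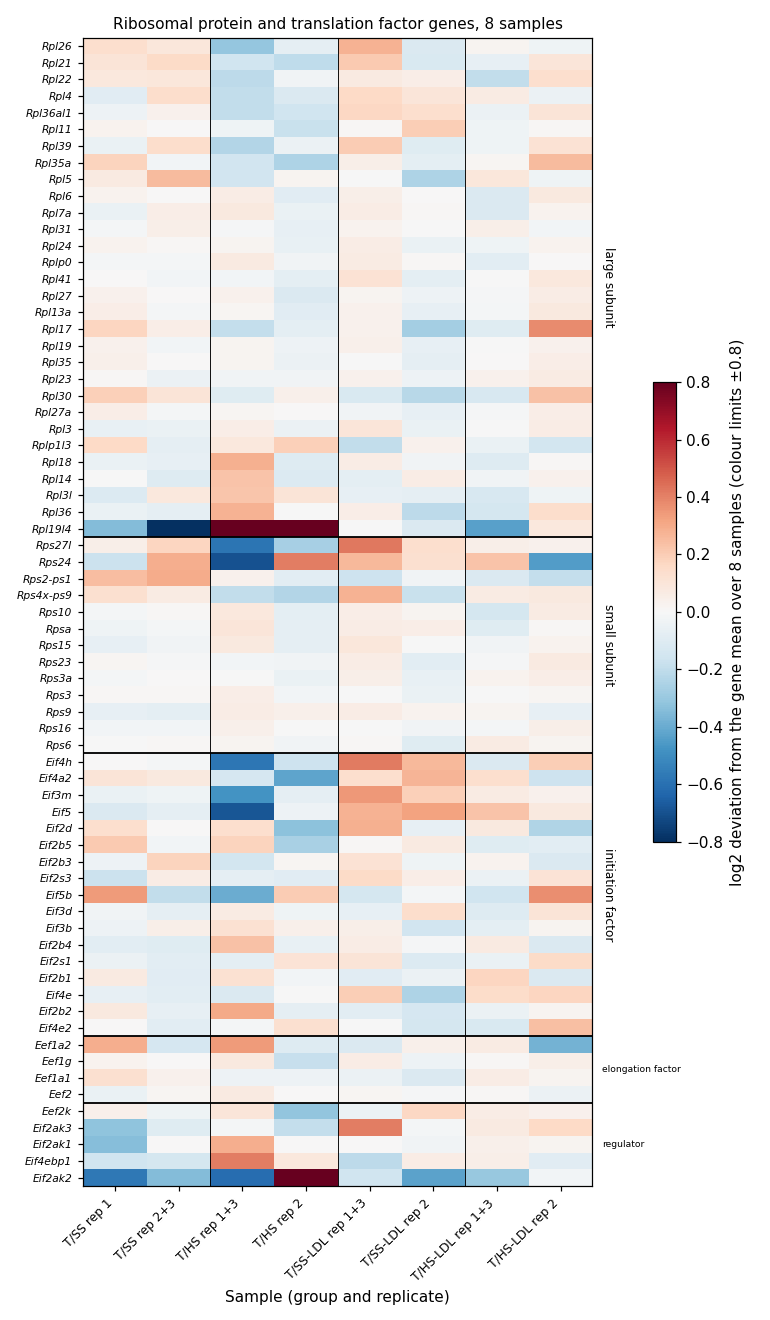
Each row is 1 of the 69 genes below the ceiling and each column 1 of the 8 samples; colour gives the log2 deviation of a sample from the gene's mean over the 8 samples. Rows are grouped by role and ordered by the mean shock effect within a role. Most rows of the subunits are pale, and Rpl19l4, Rps24, Rps27l, Eif4h, Eif5 and Eif2ak2 are among the rows with strong colour.

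The proteins of the large subunit had a median log2 difference of -0.04 in T/HS against T/SS, with 9 genes above 0 and 21 below, and -0.00 with ligated ducts, with 15 above and 15 below. Rpl19, which lies in the large subunit, read 29400 and 28256 in T/SS, 29092 and 27898 in T/HS, 29482 and 27391 in T/SS-LDL, and 28611 and 29442 in T/HS-LDL. The groups overlapped throughout, and T/HS differed from T/SS by -0.02 ± 0.09 (log2, SE, n = 2 per group). Rplp0, the stalk protein that binds the elongation factors, differed by 0.03 ± 0.09 on the same scale, with 2 arrays within 2% of the maximum. Rpl27a, just under that zone on every array, differed by -0.01 ± 0.09, and by 0.07 with ligated ducts. Sftpc, within 2% of the maximum on all 12 arrays, gave -0.01 and 0.07 in these comparisons. The values of Rpl27a thus cannot be told from a shift of the array maximum and do not show a steady level.

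Within the family, the smallest differences were those of the genes at a high level, and other genes at that height differed by more. The 24 genes under the ceiling whose mean was above 50% of the array maximum had a median absolute log2 difference of 0.04 in T/HS against T/SS and a median residual SD of 0.054. The 100 other genes of the array at that height had 0.10 and 0.087. Here and in the shares by level below, other genes at the ceiling were not left out. The 20 family genes from 10% to 50% of the maximum had 0.18 and 0.141, where 725 other genes had 0.17 and 0.172. The 25 at up to 10% had 0.17 and 0.154, where 3841 other genes had 0.11 and 0.133. Whether a limited range near the maximum holds the values of the highest genes together was not tested.

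**Figure D2:**
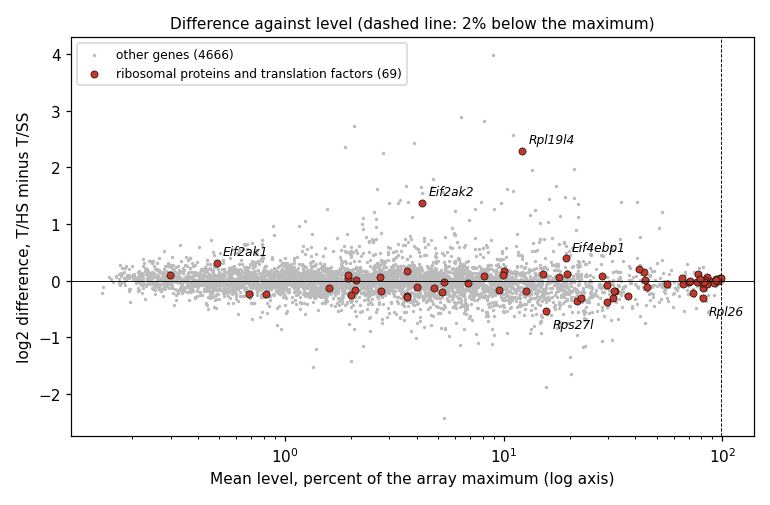
Each point is a gene, placed by its mean level in percent of the array maximum (log axis) and its log2 difference, T/HS minus T/SS. The 69 family genes in red narrow around 0 towards the dashed line 2% below the maximum, and Rpl19l4 (2.30) and Eif2ak2 (1.37) lie farthest above 0.

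Among large subunit genes of lower level, Rpl35a, which is also one of those with a run at the start, read 13135 and 11405 in T/SS, 10400 and 9773 in T/HS, 11984 and 10990 in T/SS-LDL, and 11738 and 13813 in T/HS-LDL. Both T/HS samples were below all the others. The log2 difference was -0.34 ± 0.13 (SE, n = 2 per group; limma adjusted p = 0.775) in T/HS against T/HS-LDL. Its interaction was -0.43 ± 0.18 (limma adjusted p = 1, n = 2 per group). Rpl30, Rpl17 and Rpl5, further proteins of that subunit, had interactions of -0.40 ± 0.20, -0.50 ± 0.25 and -0.38 ± 0.19. In each of these 4 genes the shock difference was below 0 with an open duct and above 0 with a ligated one, and no interaction passed the adjusted threshold. At the unadjusted threshold 2 of the 69 interactions passed, Rpl35a below 0 and Rpl19l4 above it, where 2.81% of all genes did (1.06% above 0 and 1.75% below). Without 1 sample that count of 2 ran from 1 to 5.

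Rpl21 shows how far probe sets of 1 gene can part. Its highest probe set read 10468 and 10851 in T/SS, 8719 and 8464 in T/HS, 11276 and 8957 in T/SS-LDL, and 9305 and 10434 in T/HS-LDL. The log2 difference was -0.31 ± 0.13 (SE, n = 2 per group; limma adjusted p = 0.57) in T/HS against T/SS. Another of its 4 probe sets differed by 0.50 ± 0.59 in the same comparison, with T/SS samples at 8381 and 2520. Of the 29 genes with several probe sets, 21 had all their probe sets on 1 side of 0 in T/HS against T/SS, and Rpl21 was the 1 with opposite signs that were both over 0.2 in size.

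The largest difference in the family belongs to Rpl19l4, a locus named for its likeness to Rpl19. It read 2392 and 927 in T/SS, 9615 and 5564 in T/HS, 3039 and 2810 in T/SS-LDL, and 2249 and 3224 in T/HS-LDL. Both T/HS samples were above all 6 others, and the T/SS samples differed from each other by more than those of either ligated group. In T/HS against T/SS the log2 difference was 2.30 ± 0.46 (SE, n = 2 per group; limma adjusted p = 0.373). It was -0.12 in T/HS-LDL against T/SS-LDL, 1.44 ± 0.46 (limma adjusted p = 0.775) in T/HS against T/HS-LDL, and 0.97 ± 0.46 (limma adjusted p = 0.896) for ligation alone, where both T/SS-LDL samples also lay above both T/SS samples. The interaction was 2.41 ± 0.65 (limma adjusted p = 1). Rpl19 itself, given above, did not follow this pattern. Its readings lay near the array maxima of 29933 to 32490, so a rise of that size could not show in Rpl19. Copies of near-identical sequence can share probes, so the transcript behind this probe set is uncertain.

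The small subunit had a median log2 difference of -0.00 in T/HS against T/SS and -0.04 in T/HS-LDL against T/SS-LDL, with 6 genes above 0 and 7 below in each. Rps3, a protein at the mRNA entry of the ribosome, differed by 0.01 ± 0.09 and 0.03 ± 0.09 in these comparisons. Rps16 was at 92.9% to 100% of the array maximum and within 2% of it on 5 arrays, so no difference is given for it.

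Rps27l, a p53-inducible relative of the small subunit protein Rps27, stood apart from the other small subunit genes. It read 4906 and 5341 in T/SS, 3156 and 3937 in T/HS, 6349 and 5199 in T/SS-LDL, and 4891 and 4858 in T/HS-LDL. Each shocked group lay below its sham group with no overlap, and T/HS was the lowest of the 4. The log2 difference was -0.54 ± 0.15 (SE, n = 2 per group; limma adjusted p = 0.419) with an open duct and -0.24 ± 0.15 (limma adjusted p = 0.998) with a ligated one. The mean of both shock effects was -0.39 ± 0.10 (limma adjusted p = 0.373). T/HS was also below T/HS-LDL, by a log2 difference of -0.47 ± 0.15 (limma adjusted p = 0.775).

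Rps2-ps1, which RefSeq lists as a pseudogene of the small subunit protein Rps2, read 1321 and 1372 in T/SS, 1144 and 1053 in T/HS, 997 and 1095 in T/SS-LDL, and 1028 and 980 in T/HS-LDL. The T/SS samples were above all others. On the log2 scale T/HS differed from T/SS by -0.29 ± 0.10 (SE, n = 2 per group; limma adjusted p = 0.492) and T/SS-LDL differed from it by -0.37 ± 0.10 (limma adjusted p = 0.896). Both comparisons share the T/SS samples. A second, lower probe set of the gene differed by 0.15 ± 0.13 and -0.02 ± 0.13 in these comparisons, so the first direction depends on the probe set. Whether transcripts of Rps2 itself reach these probes was not tested. Rps24 read 1387 and 1916 in T/SS, 966 and 2076 in T/HS, 1871 and 1710 in T/SS-LDL, and 1836 and 1146 in T/HS-LDL. Its shocked and sham samples overlapped in both duct states, and its difference of -0.30 ± 0.38 in T/HS-LDL against T/SS-LDL became 0.04 without T/HS-LDL replicate 2.

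The initiation factors as a group had medians of -0.03 in T/HS against T/SS, with 8 genes above 0 and 9 below, -0.05 in T/HS-LDL against T/SS-LDL and 0.05 for ligation alone. Eif4h, which stimulates the eIF4A helicase, read 6681 and 6598 in T/SS, 4466 and 5936 in T/HS, 8913 and 7989 in T/SS-LDL, and 6154 and 7640 in T/HS-LDL. Each shocked group lay below its sham group, and each ligated group lay above its open-duct counterpart. Shock differed from sham on the log2 scale by -0.37 ± 0.17 (SE, n = 2 per group; limma adjusted p = 0.582) with an open duct and -0.30 ± 0.17 (limma adjusted p = 0.998) with a ligated one. It was 0.35 ± 0.17 (limma adjusted p = 0.896) for ligation alone and -0.41 ± 0.17 (limma adjusted p = 0.775) in T/HS against T/HS-LDL. The other probe sets of Eif4h differed by -0.60 ± 0.22 and -0.29 ± 0.14 in T/HS against T/SS.

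Eif4a2, an isoform of that helicase, read 9685 and 9520 in T/SS, 8220 and 6714 in T/HS, 9886 and 10862 in T/SS-LDL, and 9868 and 8015 in T/HS-LDL. Each shocked group again lay below its sham group, by a narrow gap where the duct was ligated. With shock the log2 level differed by -0.37 ± 0.15 (SE, n = 2 per group; limma adjusted p = 0.552) with an open duct, and the mean of both shock effects was -0.30 ± 0.10 (limma adjusted p = 0.476). Its other probe set differed by -0.50 ± 0.13 (limma adjusted p = 0.417) with an open duct and by -0.36 ± 0.09 (limma adjusted p = 0.364) over both duct states.

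Eif3m, a subunit of the eIF3 complex that binds the small subunit, read 245 and 248 in T/SS, 182 and 242 in T/HS, 322 and 290 in T/SS-LDL, and 265 and 260 in T/HS-LDL. The shocked samples were below the sham samples in both duct states, with T/HS replicate 2 only just so. The mean of both shock effects was -0.23 ± 0.10 (SE, n = 2 per group; limma adjusted p = 0.59). Eif3b, the scaffold of the same complex, differed by 0.08 ± 0.11 with an open duct and 0.02 ± 0.11 with a ligated one. Within the complex, the shocked samples of Eif3b overlapped the sham samples where those of Eif3m did not.

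Eif5, which triggers GTP hydrolysis at the start codon, read 1024 and 1060 in T/SS, 691 and 1082 in T/HS, 1346 and 1392 in T/SS-LDL, and 1304 and 1174 in T/HS-LDL. At this probe set the ligated groups were above the open-duct groups, by a log2 difference of 0.39 for ligation alone. T/HS differed from T/HS-LDL by -0.52 ± 0.20 (SE, n = 2 per group; limma adjusted p = 0.775), and a second, lower probe set of the gene differed by -0.13 ± 0.09 there and by 0.00 ± 0.09 for ligation alone. Eif2b5, the catalytic subunit of the exchange factor eIF2B, read 411 to 570 over the samples and differed by -0.14 ± 0.16 in T/HS against T/SS.

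In all, 6 of the 69 genes (8.70%) were lower in both shocked samples than in both sham samples in both duct states, where 4.84% of all genes were. These are Eif3m, Eif4a2, Eif4h, Rps27l, Rpl4 and Rpl36al1. The last 2 are named after their values were seen. Of the 6, 3 are initiation factors, a role that holds 17 of the 69 genes. The share lower in both duct states varied with level. Among other genes it was 14% above 50% of the array maximum, 10.8% from 10% to 50% and 3.41% at up to 10%. The family's shares at these levels were 0%, 25% and 4%. Rpl4, a large subunit protein, read 9260 and 10855 in T/SS, 8585 and 9082 in T/HS, 10990 and 10517 in T/SS-LDL, and 10302 and 9531 in T/HS-LDL, with a mean shock effect of -0.15 ± 0.08 (SE, n = 2 per group; limma adjusted p = 0.67). Rpl36al1 read 3845 and 4048, 3448 and 3534, 4439 and 4335, and 3826 and 4241 in the same order of groups, with -0.15 ± 0.07 (limma adjusted p = 0.595). Without T/HS replicate 2 the count was 7 of 69, where 6.10% of all genes were lower. Only Eif2ak1 (1.45% of the 69) was higher in both duct states, where 4.48% of all genes were. At an unadjusted p under 0.05, the mean shock effect passed for 1 gene above 0 (all genes 3.7%) and 4 below (all genes 5.87%), 7.25% of the 69 against 9.57% of all genes. That count of 5 was 8 without T/HS replicate 2, and 3 without the averaged T/HS-LDL pair or either T/SS sample.

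**Figure D3:**
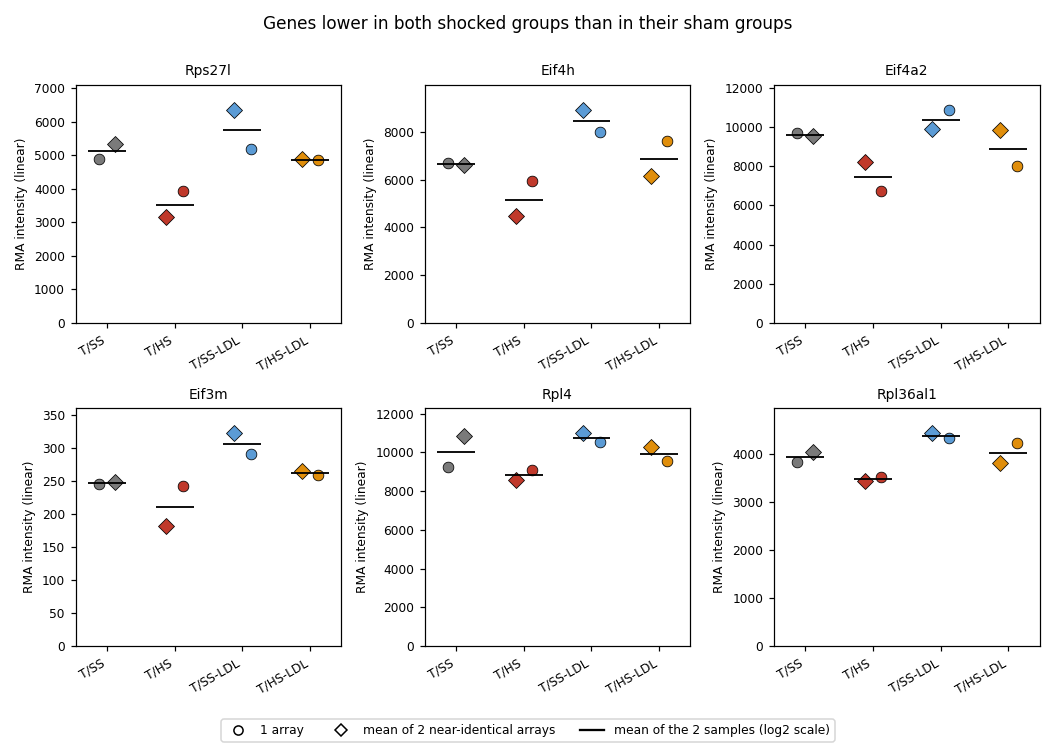
RMA intensity (linear, from 0) in the 4 groups for the 6 genes lower in both shocked groups; circles are single arrays, diamonds means of 2 near-identical arrays, and lines group means on the log2 scale. In every panel both shocked samples lie below both sham samples of the same duct state; Rps27l, for example, reads 3156 and 3937 in T/HS against 4906 and 5341 in T/SS.

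Groups that did not overlap were also counted within each comparison. In T/HS against T/SS, 9 of the 69 genes were higher in both T/HS samples (13.0%, all genes 18.7%) and 18 lower (26.1%, all genes 20.9%). With ligated ducts the counts were 7 higher (10.1%, all genes 16.0%) and 11 lower (15.9%, all genes 13.2%). The open-duct count of lower genes was 25 without T/HS replicate 2, where 30.7% of all genes were lower, and the count of higher genes was 29, where 44.8% of all genes were higher. Both lower shares lay within a few points of those of all genes.

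T/HS against T/HS-LDL, the comparison for lung injury, had 7 genes higher without overlap (10.1%, all genes 17.3%) and 20 lower (29.0%, all genes 16.1%). By level, the lower share among other genes was 20% above 50% of the array maximum, 23.7% from 10% to 50% and 14.3% at up to 10%. The family's lower shares at these levels were 20.8%, 45% and 24%. Without T/HS replicate 2 the lower count was 28 (40.6%, all genes 27.0%). At an unadjusted p under 0.05, 1 gene was higher (all genes 1.96%) and 4 were lower (all genes 4.69%), the latter being Rps27l, Rpl35a, Eif5 and Eif4h, together 7.25% of the 69 against 6.65% of all genes. The unadjusted count of 5 was 8 without T/HS replicate 2, 2 without T/HS-LDL replicate 2, and 3 without any 1 of the averaged T/HS pair, the averaged T/HS-LDL pair or either T/SS sample. Differences were over 0.3 on the log2 scale for 7 of the 69 (all genes 13.2%). Rpl3l, a muscle relative of Rpl3, was among the higher ones, at 1310 and 1202 in T/HS and 1027 and 1094 in T/HS-LDL, a log2 difference of 0.24. In this comparison all 9 heart muscle markers were also above 0, among them Myl7 at 1.72, Myh6 at 0.92 and Actc1 at 0.73. Their median deviation was -0.89 in T/HS-LDL replicate 2 and -0.60 in the averaged T/SS pair, below every other sample. Their part in Rpl3l was not tested.

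Ligation alone, T/SS-LDL against T/SS, had 14 genes higher (20.3%, all genes 16.6%) and 10 lower (14.5%, all genes 24.0%). At an unadjusted p under 0.05 there was 1 higher gene, Eif2ak3, and 1 lower, Rps2-ps1, where 1.58% and 2.03% of all genes passed, 3.61% in all. Differences were over 0.3 on the log2 scale for 7 of the 69 (all genes 8.42%). That count of 2 was 5 without either T/HS sample and 1 without the averaged T/SS-LDL pair.

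The elongation factors had a median of -0.02 in T/HS against T/SS. Eef2, the translocase, was near the ceiling at its highest probe set, which read 28960 and 30386 in T/SS, 31547 and 30119 in T/HS, 30332 and 29833 in T/SS-LDL, and 30206 and 29052 in T/HS-LDL. It equalled the array maximum on 2 arrays and was within 2% of it on 7, so its level there has only a lower bound and no difference is given. Its 3 further probe sets lie lower in the range. The second read 13742 and 17206, 22433 and 15910, 14030 and 18303, and 14107 and 12795 in the same order of groups. These 3 probe sets differed by 0.30 ± 0.21, 0.42 ± 0.41 and 0.30 ± 0.32 in T/HS against T/SS, and by 0.49, 0.90 ± 0.41 and 0.71 in T/HS against T/HS-LDL. The averaged T/HS pair was the highest sample in each of these 3, and the other T/HS sample lay within the range of the sham groups. In each of the 3, the T/HS samples differed from each other by at least as much as the group means did.

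**Figure D4:**
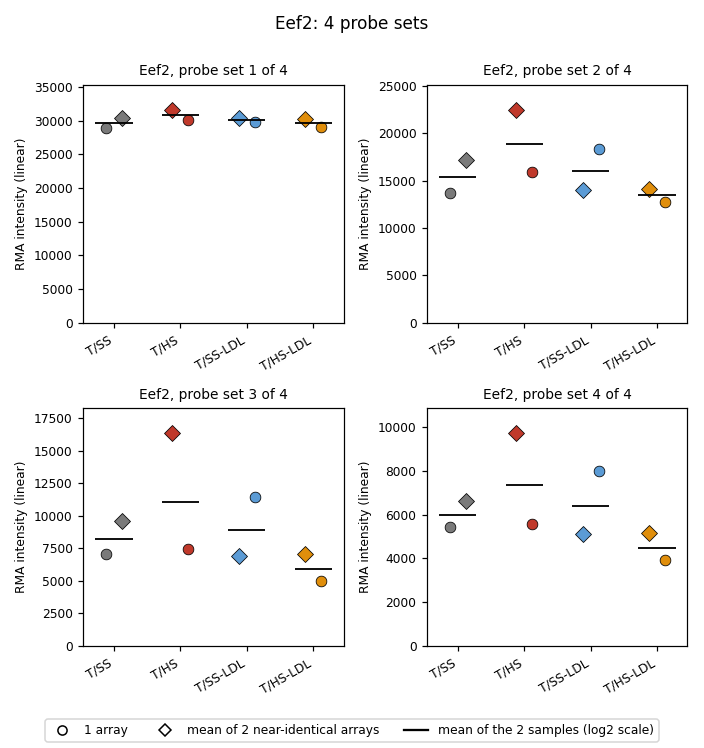
RMA intensity (linear, from 0) of the 4 probe sets of Eef2 in the 4 groups, with circles for single arrays, diamonds for means of 2 near-identical arrays and lines for group means on the log2 scale. Probe set 1, read between 28960 and 31547, is held at or near the array maximum, while probe sets 2 to 4 share a wider pattern in which the averaged T/HS pair is highest.

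Eef1a1, the factor that carries tRNAs to the ribosome, read 15302 and 14326 in T/SS, 13638 and 13610 in T/HS, 13576 and 12954 in T/SS-LDL, and 14597 and 14192 in T/HS-LDL. Shocked samples were lower with an open duct, by a difference of -0.12, and higher with a ligated duct, by 0.12. The interaction was -0.24 ± 0.13 (SE, n = 2 per group; limma adjusted p = 1). Opposite directions without overlap were found in 2 of the 69 genes, where 3.12% of all genes had them. Eef1g, a subunit of the complex that recharges Eef1a1, differed by -0.07 ± 0.11, and Eef1a2, the isoform of muscle and neurons, by 0.04 ± 0.23 with an open duct.

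The 5 regulators had the highest median of any role in T/HS against T/SS, 0.32, with 4 above 0 and 1 below, and 0.04 in T/HS-LDL against T/SS-LDL. With 5 genes, the open-duct median is the value of 1 gene, Eif2ak1. The readings of Eif2ak1, given below, lie far under the array medians of 651 to 680. Of the 4 above 0, Eif2ak2 rests on 1 array, and Eif4ebp1 also has a probe set below 0. Eif2ak2, the interferon-induced kinase PKR that senses double-stranded RNA, read 761 and 887 in T/SS, 740 and 6115 in T/HS, 1013 and 841 in T/SS-LDL, and 914 and 1114 in T/HS-LDL. Its difference of 1.37 ± 0.84 (SE, n = 2 per group; limma adjusted p = 0.67) rests on T/HS replicate 2, and without that array it was -0.15. A second probe set read 299 in that array and 101 to 136 in the other samples. In the same array 10 interferon responsive genes had a median log2 deviation of 2.85, and their summed intensity reached 164100, where it was 16371 to 24819 in every other sample. Whether the interferon signal of this array accounts for Eif2ak2 was not tested.

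Eif4ebp1, which binds eIF4E and blocks cap-dependent initiation, read 5287 and 5357 in T/SS, 7832 and 6261 in T/HS, 5114 and 6147 in T/SS-LDL, and 6112 and 5556 in T/HS-LDL. Both T/HS samples lay above all others, and T/HS differed from T/SS by 0.40 ± 0.15 on the log2 scale (SE, n = 2 per group; limma adjusted p = 0.525). The lowest difference among the gene's 3 probe sets in that comparison was -0.11. In T/HS against T/HS-LDL the difference was 0.27 at the highest probe set but -0.23 and -0.36 at the gene's other 2. The direction thus depends on the probe set in both comparisons.

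Eif2ak1, the heme-regulated eIF2 kinase, read 117 and 149 in T/SS, 181 and 149 in T/HS, 149 and 146 in T/SS-LDL, and 153 and 151 in T/HS-LDL. With an open duct the highest sham and the lowest shocked sample both round to 149, and the difference there was 0.32 ± 0.15 (SE, n = 2 per group; limma adjusted p = 0.584). Eif2ak3, the eIF2 kinase PERK of the endoplasmic reticulum, read 468 and 546 in T/SS, 577 and 512 in T/HS, 777 and 578 in T/SS-LDL, and 614 and 652 in T/HS-LDL. It was higher with ligation alone by 0.41 ± 0.16 (limma adjusted p = 0.896) and overlapped between T/HS and T/SS. Eef2k, the kinase that inhibits Eef2, differed by -0.11 ± 0.15 in T/HS against T/SS. A lower probe set of Eef2k read 1070 and 909 in T/SS, 875 and 582 in T/HS, 523 and 312 in T/SS-LDL, and 812 and 929 in T/HS-LDL. It differed by -1.29 ± 0.28 (limma adjusted p = 0.896) for ligation alone and by 1.10 ± 0.28 (limma adjusted p = 0.998) in T/HS-LDL against T/SS-LDL, while the higher probe set, at 1279 and 1215 in T/SS and 1207 and 1396 in T/SS-LDL, overlapped.

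**Figure D5:**
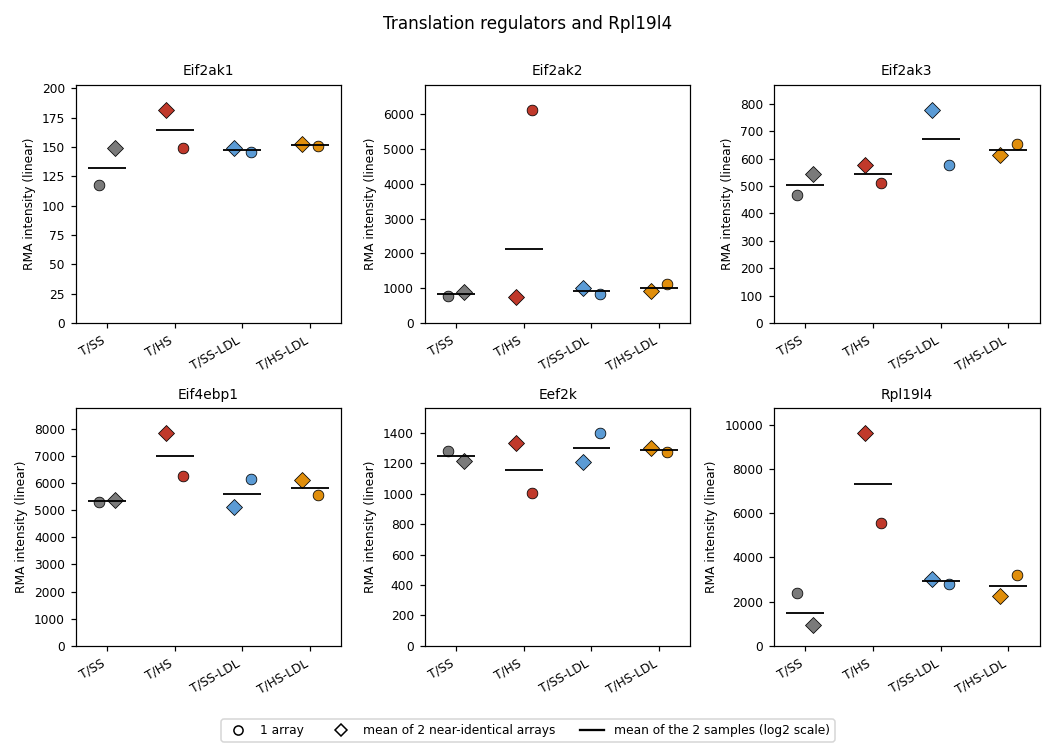
RMA intensity (linear, from 0) of the 5 regulators and Rpl19l4 in the 4 groups, with circles for single arrays, diamonds for means of 2 near-identical arrays and lines for group means on the log2 scale. Eif2ak2 is high in 1 array (6115), and Rpl19l4 in both T/HS samples (9615 and 5564).

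Levels were also set against the start sequences. The 11 genes with a pyrimidine run at the start had a median log2 difference of -0.03 in T/HS against T/SS, from -0.28 to 0.12, and 0.01 in T/HS-LDL against T/SS-LDL. The 50 other genes with a start sequence had -0.01 in each of these comparisons, from -0.54 to 1.37 in the first. Of the windows printed above, those of Rpl19, Rplp0 and Rpl35a have the run at the start, and those of Rps27l, Eif4h and Eif4a2 do not. The windows of Rps27l, Eif4h and Eif4a2 were printed because the results return to these genes, which were lower in both shocked groups. Since 50 genes lack the run and 11 have it, windows chosen in this way cannot show a link between the run and shock. The Eif4h window holds pyrimidines just before the annotated start. A link between start sequence and level was not tested.

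Lists of genes that work with this machinery gave no call at an adjusted p under 0.05 either. Of 14 mitochondrial ribosomal protein genes, which build the separate ribosome of that organelle, 4 lay above 0 and 10 below in T/HS against T/SS, with a median of -0.11, and 11 lay above and 3 below in T/HS-LDL against T/SS-LDL, with a median of 0.02. Mrps6 was above its sham groups in both duct states, at 450 and 383 in T/SS, 824 and 653 in T/HS, 422 and 498 in T/SS-LDL, and 878 and 612 in T/HS-LDL, a mean shock effect of 0.75 ± 0.15 (SE, n = 2 per group; limma adjusted p = 0.298). Paip1, a partner of the poly(A)-binding protein, read 1186 and 1059 in T/SS, 874 and 809 in T/HS, 1423 and 1210 in T/SS-LDL, and 980 and 1037 in T/HS-LDL, a mean shock effect of -0.40 ± 0.09 (limma adjusted p = 0.309). The 6 aminoacyl-tRNA synthetases and cofactors were all above 0 in T/HS against T/SS, with a median of 0.15. With ligated ducts 5 lay above 0 and 1 below, with a median of 0.05. At an unadjusted limma p under 0.05, 0 of the 6 passed in either comparison. Of all 4736 genes, 2267 lay above 0 with an open duct and 2500 with a ligated one.

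Among 10 genes of ribosome biogenesis, whose median was -0.02 in T/HS against T/SS, Myc, a transcription factor that drives this process, read 652 and 504 in T/SS, 706 and 910 in T/HS, 638 and 629 in T/SS-LDL, and 915 and 809 in T/HS-LDL. Its shocked samples were above the sham samples in both duct states, with a mean shock effect of 0.46 ± 0.12 (SE, n = 2 per group; limma adjusted p = 0.361). The 17 genes of mTOR and S6 kinase signalling had a median of -0.03 with an open duct and -0.02 with a ligated one. The 12 genes of the integrated stress response, which the eIF2 kinases trigger, had medians of 0.03 and 0.15, with 8 and 11 genes above 0.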

How the data were processed

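RNA of rat lung was read on 12 Affymetrix RG-U34A arrays. Per the submitters' processing notes, the authors used RMA (version not given in the sources used here), and the deposited values are linear intensities. They were turned to log2 with no further scaling. Gene names come from the platform annotation, and 59 control probe sets were left out. Arrays of a group with a robust SD of log2 differences under 0.1 were averaged, because they differed far less than other arrays of their group. The test was limma (3.58.1, R 4.3.3), with 1 model of all 4 groups over the 8 samples and 4 residual and 2.85 prior degrees of freedom, two-sided, with Benjamini-Hochberg adjustment over 8740 probe sets, and the code was tested on simulated data. The number of arrays limits the precision. Members, related lists and tests were chosen with earlier results of these data known. Genes were named by a rule: in each role the 3 highest and 2 lowest by mean level, in each comparison the 6 smallest p-values and 4 largest differences, all regulators, genes at the ceiling, genes whose probe sets oppose each other, and 2 genes of each related list per comparison, of which only some are printed. Alternatives varied the array averaging, replicate block, scaling, offset, dim filter and samples.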

Additional observations from a re-analysis of the deposited data

Results flagged for a closer look

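In 2 of the 69 genes (2.90%, all genes 3.12%) the shocked and sham samples did not overlap in either duct state and lay in opposite directions. For Eef1a1 the shock difference was -0.12 with an open duct and 0.12 with a ligated one, an interaction of -0.24 on the log2 scale. For Rps9, a small subunit protein that the naming rule does not cover, it was 0.12 and -0.07, an interaction of 0.19. The limma adjusted p of the interaction was 1 for each (n = 2 samples per group).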

How the results depend on the processing

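With 8 samples, limma called 0 probe sets in every comparison, and averaging the near-identical arrays decides this. In the order of shock with an open duct, shock with a ligated duct, T/HS against T/HS-LDL, ligation alone, interaction and mean shock effect, 12 separate arrays gave 629, 127, 372, 141, 1 and 733 calls, of which 4, 0, 4, 1, 0 and 6 were among the 69 genes. The replicate block gave 456, 47, 130, 21, 1 and 570 calls. Between arrays of the same replicate number, 3 of 18 pairs had a correlation over 0.1 (range -0.17 to 0.19). With a near-identical pair of arrays in every group, these correlations cannot show whether replicate numbers pair the samples. The sample as a random block gave 25 calls in T/HS against T/SS and 58 for the mean shock effect.

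Leaving out a sample gave 0 to 139, 0 to 2, 0 to 66, 0 to 2, 0 to 27 and 0 to 108 calls in that order, the highest of the first without the averaged T/HS pair. The family median then ranged from -0.0382 to 0.046 for shock with a ligated duct, from -0.0356 to 0.0425 for ligation alone and from -0.0748 to 0.0058 in the interaction, with the extremes of all 3 set by leaving out a T/SS-LDL sample. Of 34 named differences, 32 kept their direction in every alternative run. Eif2ak2 reversed in T/HS against T/SS without T/HS replicate 2 (-0.15, and 2.90 without the averaged T/HS pair, where the lone sample is assumed to vary like the other groups), and Rps24 in T/HS-LDL against T/SS-LDL without T/HS-LDL replicate 2 (0.0371, and -0.64 without the averaged pair). Counts at an unadjusted p and counts without T/HS replicate 2 were chosen after seeing the data. Signal near the array maximum limits what the highest genes can show.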
